A study of Rattus norvegicus with 10 samples.

Results

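Caveolae are flask-shaped pits of the plasma membrane. Caveolins, which sit in the membrane as hairpins, form their scaffold, and cavins assemble into the coat that covers the pit from the cytoplasm. EHD2 and PACSIN2 shape and hold the neck. In brain endothelial cells, caveolae are kept scarce by the lipid transporter MFSD2A, and this keeps transcytosis across the blood-brain barrier low, while the transferrin receptor carries iron-loaded transferrin into these cells through clathrin-coated pits. The comparison asked how the coat genes and the scaffold genes of caveolae, and the genes of transcytosis beside them, stood in the cortex after electroacupuncture (EA).

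The set holds 10 of the 32623 genes in the table, chosen by symbol: the coat genes Cavin1, Cavin2 and Cavin3, the scaffold genes Cav1 and Cav2, the neck genes Ehd2 and Pacsin2, and Mfsd2a, Plvap and Tfrc. Each symbol had 1 row. The samples were cerebral cortices of adult male Sprague-Dawley rats, 5 given EA and 5 controls. EA was applied at GV20 and GV26, 2 points of the head, with a current of 3 mA at 2/100 Hz over 40 min, and controls were kept bound for equally long. All rats were then anaesthetised with pentobarbital and perfused with saline, and poly(A) RNA of the cortex was sequenced. That each library is a separate rat is not stated outright, so the p-values measure the spread between these libraries.

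Deposited counts summed to 47843590 to 60941939 per EA library and to 55223193 to 61707722 per control library. Markers of neurons summed to 2562 to 3122 FPKM in EA and to 2753 to 2931 FPKM in control, while those of the choroid plexus, a tissue outside the cortex, summed to 1.68 to 2.21 FPKM in EA and to 1.15 to 2.67 FPKM in control, with Otx2 at 0 in every library. FPKM scales fragment counts by transcript length and library depth, so it can be compared between genes. Genes were tested with edgeR where FPKM reached 0.5 in at least 5 of 10 libraries, which 15169 genes and 9 of the 10 members did. Plvap did not. Calls needed a fold change above 1.2 together with an adjusted p (Benjamini-Hochberg) below 0.05.

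The 3 coat genes were lower on average in EA cortex and the 2 scaffold genes were close to control, but none of these differences passed the test with edgeR. Cavin2 differed most, with a fitted level 0.663 of that in control. DESeq2 called Cavin2, lower in EA, and no other member. With edgeR, 3 genes (0.0198% of those tested) were called higher in EA and 0 (0%) lower, and the members added 0 to either count. DESeq2 called 97 genes lower, 0.640% of those it tested. At an unadjusted p under 0.05 with edgeR, 3 of 9 members were lower in EA (Cavin2, Cavin3 and Mfsd2a) and 0 were higher, where 7.15% of all genes tested were lower and 6.59% higher. The members were chosen with earlier results of these data known, so these shares are no test of the set. In bulk tissue, fewer cells that make these RNAs and less of the RNA per cell cannot be told apart.

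**Figure D1:**
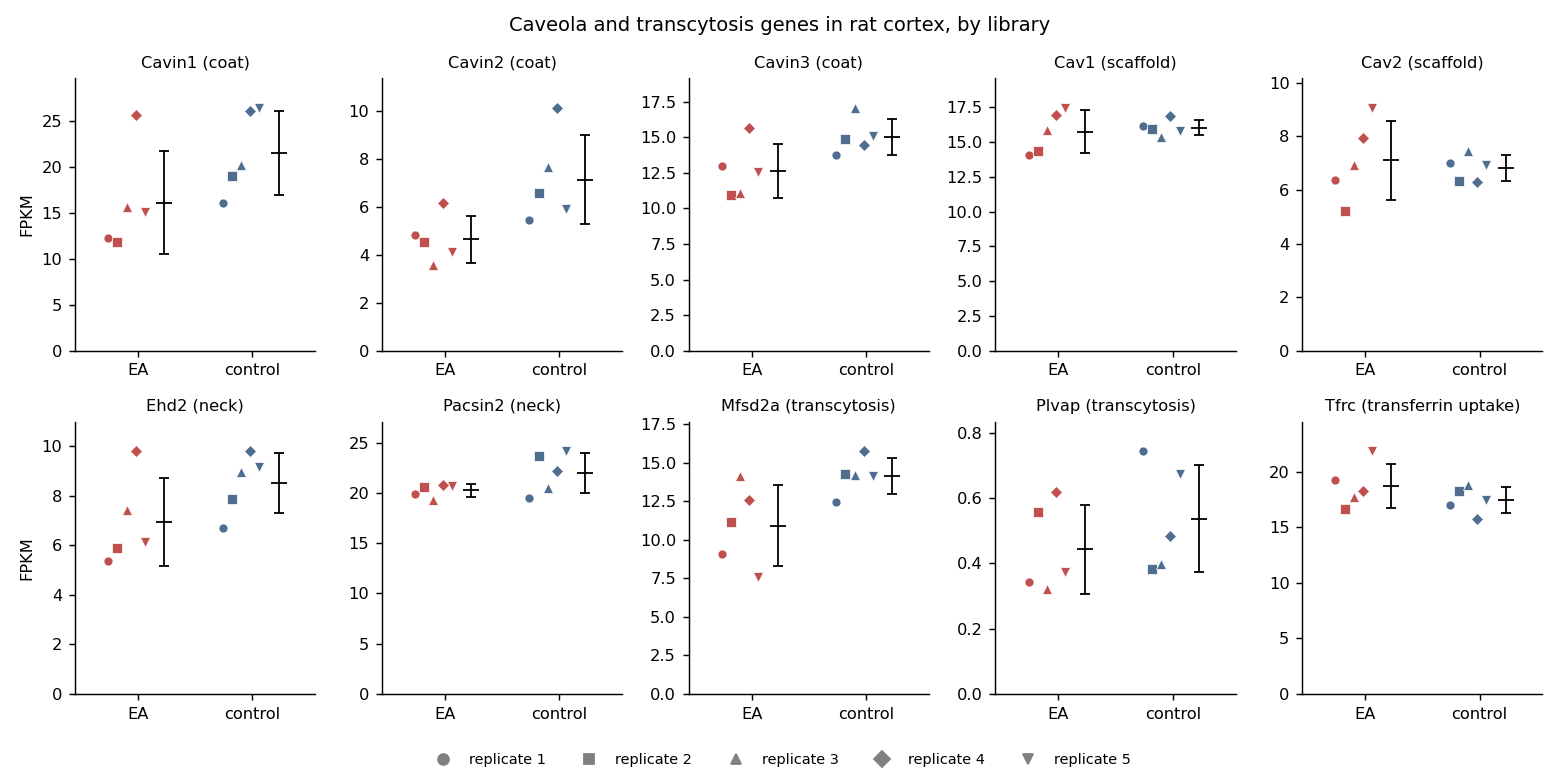
FPKM of each of the 10 genes (vertical axes, each from 0) in the 5 EA libraries (red) and the 5 control libraries (blue), with marker shape giving the replicate number and the black bar the mean and SD. In Cavin1, Cavin2 and Cavin3, 4 of 5 EA libraries lie below the lowest control, and the EA library above it is EA 4 each time.

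The genes differed widely in level. Over all 10 libraries the mean ran from 21.1 FPKM for Pacsin2 through 18.8 for Cavin1, 18.1 for Tfrc, 15.9 for Cav1, 13.8 for Cavin3, 12.6 for Mfsd2a, 7.72 for Ehd2, 6.96 for Cav2 and 5.89 for Cavin2 to 0.490 for Plvap. The ranges of neighbours in this order overlapped down to Cavin2, and Plvap alone stood apart from the gene before it. Cavin1 had about the level of Cav1, its partner at the membrane, whereas Cavin2 lay well below both.

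Promoter sequence is shown to set genes of the coat, scaffold and neck side by side: Cavin1 and Ehd2, whose levels varied together, Cavin2, which differed most between the groups, and the caveolins, which were close to control. Each run is the 250 bases before a RefSeq gene start on the GRCr8 assembly, read 5′ to 3′ on the gene's strand. Capitals mark 3 motifs, searched on both strands. The GC box has the letters GGGCGG, which appear as CCGCCC when the match is on the opposite strand. The CCAAT box is written CCAAT on this strand and ATTGG on the opposite one. The TATA box is written TATAAA on this strand and TTTATA on the opposite one. None of these motifs overlaps another in the runs shown. RefSeq sequences were matched for 8 of the 10 members.
Cavin1, chr10:86396384-86396633, minus strand: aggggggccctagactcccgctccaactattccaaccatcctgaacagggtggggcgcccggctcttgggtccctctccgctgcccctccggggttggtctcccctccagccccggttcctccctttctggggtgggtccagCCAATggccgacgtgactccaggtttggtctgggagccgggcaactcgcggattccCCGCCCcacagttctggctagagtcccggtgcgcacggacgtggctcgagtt
Cavin2, chr9:57806025-57806274, minus strand: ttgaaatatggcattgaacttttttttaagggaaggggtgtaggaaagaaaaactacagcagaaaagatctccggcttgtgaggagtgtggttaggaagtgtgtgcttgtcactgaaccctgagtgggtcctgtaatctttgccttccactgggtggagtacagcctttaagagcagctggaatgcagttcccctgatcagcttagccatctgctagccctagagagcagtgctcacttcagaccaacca
Ehd2, chr1:85786944-85787193, minus strand: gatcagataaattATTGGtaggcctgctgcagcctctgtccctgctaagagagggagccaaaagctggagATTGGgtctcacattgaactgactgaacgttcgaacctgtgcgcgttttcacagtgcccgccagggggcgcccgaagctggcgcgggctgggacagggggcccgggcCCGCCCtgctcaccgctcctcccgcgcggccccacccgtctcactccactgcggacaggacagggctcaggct
Cav1, chr4:46606288-46606537, plus strand: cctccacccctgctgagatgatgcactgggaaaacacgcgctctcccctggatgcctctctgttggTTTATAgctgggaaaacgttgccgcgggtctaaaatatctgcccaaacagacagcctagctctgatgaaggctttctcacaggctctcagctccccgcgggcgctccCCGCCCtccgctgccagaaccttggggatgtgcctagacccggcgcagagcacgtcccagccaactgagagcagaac
Cav1, second start, chr4:46607722-46607971, plus strand: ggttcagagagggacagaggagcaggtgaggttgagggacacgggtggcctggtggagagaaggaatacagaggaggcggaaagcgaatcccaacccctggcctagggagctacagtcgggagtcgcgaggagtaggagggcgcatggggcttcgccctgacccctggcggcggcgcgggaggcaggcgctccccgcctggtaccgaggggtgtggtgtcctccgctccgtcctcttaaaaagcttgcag
Cav2, chr4:46582431-46582680, plus strand: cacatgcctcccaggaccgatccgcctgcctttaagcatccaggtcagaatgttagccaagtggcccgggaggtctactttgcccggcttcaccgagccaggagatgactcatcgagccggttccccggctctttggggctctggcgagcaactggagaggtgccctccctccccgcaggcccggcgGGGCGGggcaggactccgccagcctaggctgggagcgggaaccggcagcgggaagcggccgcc

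Cavin2 stood out among the runs printed here. It was 47.6% G and C with 1 CpG and held none of the motifs. The others included 67.2% and 17 CpG for Cavin1, 64.4% and 17 CpG for Ehd2, and 68.4% and 19 CpG for Cav2. The run of the neck gene Pacsin2, not printed, was nearer to Cavin2, at 53.6% and 3 CpG with none of the motifs. The 33469 promoters of the table had a median of 51.2% and 5 CpG, and 7.83% of them had fewer CpG than Cavin2. A GC box was found in 30.5% of all promoters, a CCAAT box in 34.0% and a TATA box in 12.9%. Cavin1 held a GC box and a CCAAT box, Ehd2 a GC box and CCAAT boxes, and Cav2 a GC box. The first Cav1 run, at 60.0% and 13 CpG, held a GC box and a TATA box, and the second, at 65.6% and 17 CpG, held none. A match says only that these letters are present.

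Cavin1 encodes the cavin that every caveola needs to form, and on the Rnor_6.0 assembly of the files it lies at chr10:88860733-88874528. It was measured at 12.3, 11.8, 15.7, 25.6 and 15.1 FPKM in EA 1 to EA 5, against 16.0, 19.0, 20.2, 26.0 and 26.4 FPKM in control 1 to control 5. All EA libraries but EA 4 were below the lowest control, and EA 4 reached the level of the highest controls. The means were 16.1 ± 5.58 FPKM in EA and 21.5 ± 4.55 FPKM in control (SD, n = 5 each). The log2 fold change was -0.40 (standard error 0.201, 95% interval -0.84 to 0.04, edgeR adjusted p = 0.409). Without EA 4 it was -0.62 (adjusted p = 0.187 with edgeR), and without EA 2 and EA 5 it was -0.24.

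Cavin2, a phosphatidylserine-binding cavin that helps to curve the membrane, lies at chr9:55243255-55256340. It was measured at 4.82, 4.54, 3.59, 6.17 and 4.09 FPKM in EA 1 to EA 5, against 5.43, 6.55, 7.64, 10.1 and 5.90 FPKM in control 1 to control 5. Again only EA 4 lay above the lowest control, and every EA library was below the control median. The means were 4.64 ± 0.973 FPKM in EA and 7.13 ± 1.87 FPKM in control (SD, n = 5 each). The log2 fold change was -0.59 (standard error 0.169, 95% interval -0.96 to -0.23, edgeR adjusted p = 0.203). Of the genes tested, 1.46% had a lower fold change. DESeq2 gave the same size (-0.59, standard error 0.158) with an adjusted p of 0.0200, so the call for Cavin2 rests on the choice of tool. Without control 4, the highest library, the log2 fold change was -0.44 (edgeR adjusted p = 0.346). DESeq2 was not rerun with libraries left out.

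Cavin3, a cavin known to bind protein kinase C delta, lies at chr1:170317113-170318935. It was measured at 13.0, 11.0, 11.1, 15.7 and 12.5 FPKM in EA 1 to EA 5, against 13.7, 14.9, 17.1, 14.4 and 15.1 FPKM in control 1 to control 5. The groups overlapped through EA 4 alone. The means were 12.6 ± 1.9 FPKM in EA and 15.0 ± 1.26 FPKM in control (SD, n = 5 each), and the log2 fold change was -0.23 (standard error 0.0974, 95% interval -0.44 to -0.02, edgeR adjusted p = 0.330). Without EA 2 and EA 5 it was -0.15.

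The caveolins did not share this pattern. Cav1, the caveolin without which endothelial caveolae are not made, lies at chr4:44597123-44630200, next to Cav2 at chr4:44573264-44580638. Cav1 was measured at 14.1, 14.4, 15.9, 17.0 and 17.5 FPKM in EA 1 to EA 5, against 16.2, 15.9, 15.4, 16.9 and 15.8 FPKM in control 1 to control 5. The EA libraries reached past the controls on both sides, 2 below the lowest and 2 above the highest. The means were 15.8 ± 1.53 FPKM in EA and 16.1 ± 0.562 FPKM in control (SD, n = 5 each), with a 95% interval of the log2 fold change from -0.14 to 0.13 (edgeR adjusted p = 0.988).

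Cav2, which joins Cav1 in mixed oligomers, was measured at 6.39, 5.21, 6.93, 7.96 and 9.08 FPKM in EA 1 to EA 5, against 7.01, 6.34, 7.47, 6.32 and 6.94 FPKM in control 1 to control 5. It too was more spread in EA, with EA 2 lowest and EA 5 highest of all 10 libraries. The means were 7.11 ± 1.48 FPKM in EA and 6.82 ± 0.490 FPKM in control (SD, n = 5 each). The log2 fold change was 0.08 (standard error 0.127, 95% interval -0.20 to 0.36, edgeR adjusted p = 0.830). Without EA 5 it was -0.01, and without EA 2 it was 0.17.

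**Figure D2:**
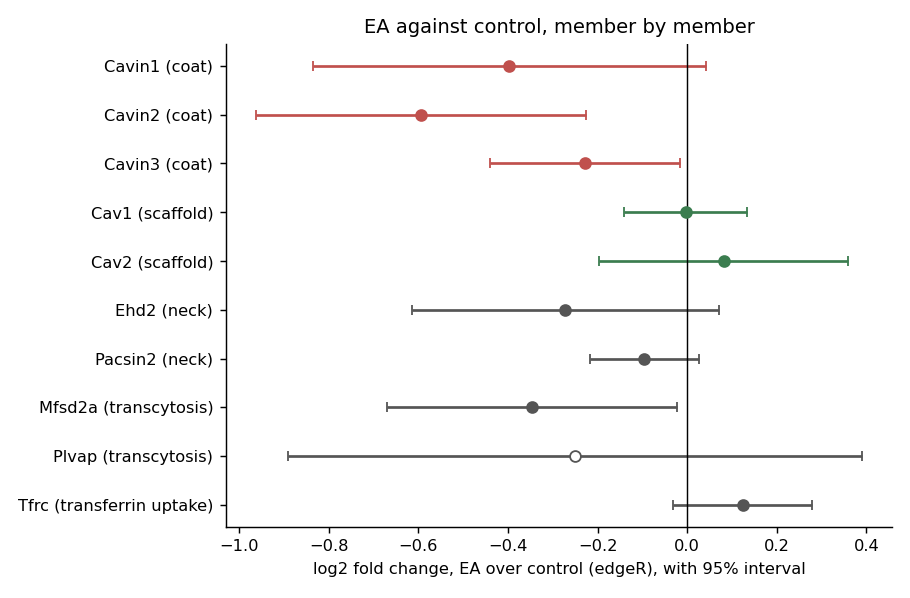
Log2 fold change of EA over control for each gene (horizontal axis) with its 95% interval derived from the edgeR fit. Coat genes are in red, scaffold genes in green and the rest in grey. The open point is Plvap, fitted without the expression filter. The intervals of Cavin2, Cavin3 and Mfsd2a end below 0, and those of Cav1 and Cav2 span it, but no member had an adjusted p under 0.05.

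Coat and scaffold were set against each other within each library, as the mean log2 CPM of Cavin1, Cavin2 and Cavin3 minus that of Cav1 and Cav2. CPM is the count scaled to library size, here with TMM factors. The difference was -0.15, -0.14, -0.39, 0.12 and -0.55 in EA 1 to EA 5, against -0.10, 0.19, 0.27, 0.50 and 0.25 in control 1 to control 5. All EA libraries but EA 4 lay below the lowest control. Since CPM is not scaled by transcript length, only the difference between groups can be read from this score, not its sign in a library. The group means were -0.22 ± 0.259 in EA and 0.22 ± 0.215 in control (SD, n = 5 each), so EA minus control was -0.44 (standard error 0.151). No test was run on this score, since its genes were chosen with results known.

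EA minus control was -0.42 in the coat mean and 0.03 in the scaffold mean. The coat mean was 4.57 ± 0.269 log2 CPM in EA and 4.99 ± 0.188 log2 CPM in control (SD, n = 5 each), and the scaffold mean was 4.79 ± 0.210 log2 CPM in EA and 4.77 ± 0.0585 log2 CPM in control. Set against Cav1 in FPKM, Cavin1 stood at 0.824 to 1.51 in EA and at 0.991 to 1.67 in control. Cavin2 stood at 0.226 to 0.364 of Cav1 in EA and at 0.336 to 0.599 in control, and Cavin3 at 0.698 to 0.923 in EA and at 0.849 to 1.11 in control. The gap did not hang on a single coat gene, as it was -0.44 without Cavin1, -0.36 without Cavin2 and -0.53 without Cavin3. Within the scaffold, Cav2 minus Cav1 differed by 0.07 log2 units, EA minus control.

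**Figure D3:**
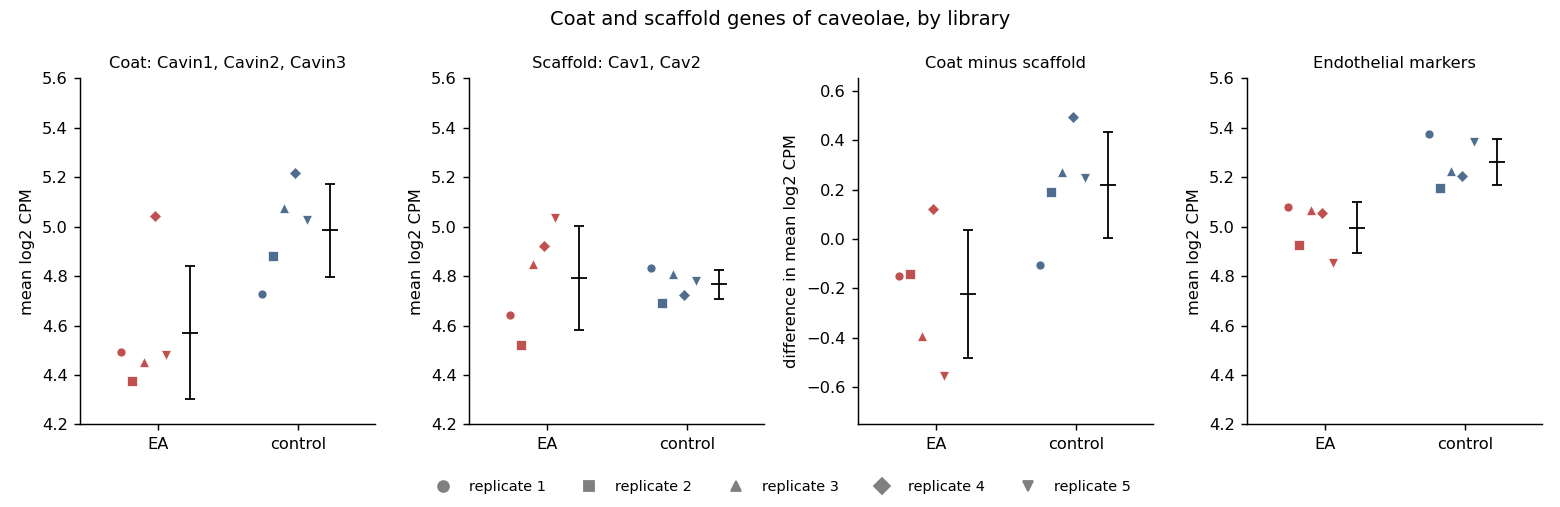
Mean log2 CPM of the coat genes, of the scaffold genes and of the brain endothelial markers, and the coat minus scaffold difference, in the 5 EA libraries (red) and the 5 control libraries (blue), with the mean and SD in black. The scaffold means of the groups lie within 0.03 of each other, whereas 4 of 5 EA libraries lie below the lowest control in coat minus scaffold and all 5 do in the endothelial markers.

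The endothelial markers were lower in EA as well. The 18 markers in the table summed to 290 to 346 FPKM in EA and to 374 to 394 FPKM in control, with no overlap, and their mean log2 CPM was 5.00 ± 0.102 in EA and 5.26 ± 0.0929 in control (SD, n = 5 each). How often sums over other genes leave the groups without overlap was not tested. All 17 markers tested had a fold change below 0, as did 50.5% of all genes tested. At an unadjusted p under 0.05 with edgeR, 6 of them were lower, where 7.15% of all genes tested were. This list too was chosen with earlier results known, so the share is no test of it. Calls numbered 0 with edgeR and 4 with DESeq2, all of them lower, where DESeq2 called 0.640% of the genes it tested lower. The lowest p belonged to Sox18 (-0.98) and Tie1 (-0.46), which act in vessel growth, and to Vwf (-0.50), the clotting factor of endothelium. The markers were uneven, as Cdh5 (-0.03), Egfl7 (-0.03) and Emcn (-0.02), with the highest p, were close to 0. Cldn5, the main claudin of brain vessels, was below the filter, with counts in 2 control libraries and none in the other 8, and gives no comparison between the groups.

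With the endothelial marker mean as a term in the edgeR fit, the log2 fold change was -0.73 for Cavin2 (standard error 0.313, adjusted p = 0.802). It was -0.18 for Cavin1 (standard error 0.372), -0.15 for Cavin3 and -0.14 for Ehd2. The markers do not overlap between the groups, and the standard error of Cavin2 in this fit compares with 0.169 without the markers. Cavins and caveolins are also made in mural cells and fibroblasts. Pericyte and smooth muscle markers summed to 147 to 170 FPKM in EA and to 154 to 177 FPKM in control, and those of fibroblasts and meninges to 26.1 to 76.8 FPKM in EA and to 34.2 to 76.3 FPKM in control. The part of these cells in the coat values was not tested beyond fits with each marker mean as a term, which gave -0.28 (mural) and -0.30 (fibroblast) for Cavin1, and -0.56 (mural) and -0.54 (fibroblast) for Cavin2.

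Of the neck genes, Ehd2 encodes an ATPase that rings the neck of the caveola and holds it at the surface. It was measured at 5.37, 5.91, 7.42, 9.81 and 6.15 FPKM in EA 1 to EA 5, against 6.72, 7.89, 8.96, 9.82 and 9.19 FPKM in control 1 to control 5. EA 1, EA 2 and EA 5 were below all controls, and EA 4 was level with the highest. The means were 6.93 ± 1.77 FPKM in EA and 8.52 ± 1.22 FPKM in control (SD, n = 5 each), with a log2 fold change of -0.27 (standard error 0.157, 95% interval -0.61 to 0.07, edgeR adjusted p = 0.473). Without EA 4 it was -0.42 (edgeR adjusted p = 0.235), without EA 1 it was -0.19, and without EA 2 and EA 5 it was -0.14.

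Pacsin2, an F-BAR protein that bends membrane at the neck, was the steadiest gene in EA, at 19.3 to 20.8 FPKM with a median of 20.6, against 19.5 to 24.2 FPKM with a median of 22.2 in control. Its log2 fold change was -0.10 (95% interval -0.22 to 0.03, edgeR adjusted p = 0.476), and -0.06 without control 5. Of the 5 other EHD and PACSIN genes, edgeR and DESeq2 called 0. At an unadjusted p under 0.05 with edgeR, 1 was lower, where 7.15% of all genes tested were. This gene, Ehd1, which acts in endosomal recycling, had the lowest p (log2 fold change -0.20, standard error 0.0616, edgeR adjusted p = 0.223). Ehd1 averaged 15.4 ± 1.39 FPKM in EA and 18.0 ± 0.883 FPKM in control (SD, n = 5 each).

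Ehd2 followed Cavin1 from library to library. After each group's mean log2 CPM was taken away, their deviations correlated at r = 0.937 (Spearman 0.879) over 10 libraries. Among 15168 genes, Cavin1 ranked 3 for Ehd2 and Ehd2 ranked 5 for Cavin1. Without EA 4 and control 5, the libraries whose Cavin1 deviations lay farthest from the median deviation, r was 0.890 over 8 libraries. The group means taken away were still those of all 10 libraries and were not taken anew. The pair was picked for its likeness, so no p is given. Cav1 and Cav2, which are neighbours on their chromosome, correlated at r = 0.722 (Spearman 0.721), while Cav1 correlated with Cavin1 at 0.551 and with Cavin2 at -0.05.

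**Figure D4:**
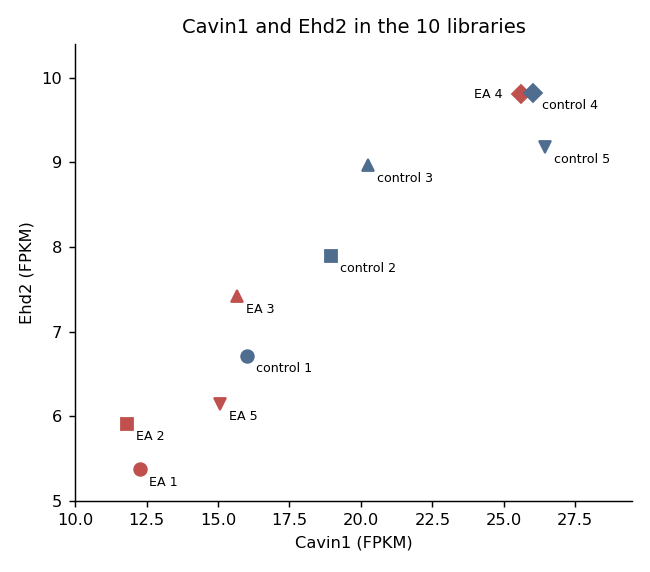
Ehd2 against Cavin1 (both in FPKM; axes do not start at 0), 1 point per library, EA in red and control in blue. EA 4 lies with control 4 and control 5 at the upper right, and EA 1 and EA 2 lie at the lower left.

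The genes closest to each member by the same measure were mostly not the other members. Foxc1, a transcription factor of vessel and mural cell development, came first for Cavin1 (r = 0.964), ahead of AABR07043748 and Ccnd3. Gja5, a connexin of arterial endothelium, came first for Cav1 (0.965), followed by Srsf12 and Maob, and Tifab, Maoa and Fgf11 led for Cav2 (0.977 to 0.943). Cd86, Polr2d and Dffa led for Cavin2 (0.970 to 0.918) and AABR07007385, Frs3 and Nfrkb for Cavin3 (0.965 to 0.923). AABR07043748 and Mt2A stood ahead of Cavin1 for Ehd2 (0.975 and 0.942), and Trim41, Bbs1 and Xaf1 led for Pacsin2 (0.932 to 0.923). Naa80, AABR07035787 and Cdc42ep5 led for Mfsd2a (0.974 to 0.957), and Chrna5, RGD1304728 and Ndst3 for Tfrc (0.943 to 0.919). With 10 libraries and 15168 genes, values of this size are found for every member. Gja5 averaged 0.539 FPKM and Cd86 0.666 FPKM, both close to the filter of 0.5 FPKM.

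Mfsd2a, the lysophosphatidylcholine transporter that holds back caveolar transcytosis in brain endothelium, lies at chr5:140642885-140657745. It was measured at 9.11, 11.2, 14.2, 12.6 and 7.61 FPKM in EA 1 to EA 5, against 12.5, 14.3, 14.2, 15.8 and 14.1 FPKM in control 1 to control 5. EA 1, EA 2 and EA 5 were below the lowest control, and EA 3 and EA 4 were within the control range. The means were 10.9 ± 2.63 FPKM in EA and 14.2 ± 1.17 FPKM in control (SD, n = 5 each). The log2 fold change was -0.35 (standard error 0.149, 95% interval -0.67 to -0.02, edgeR adjusted p = 0.332). It was -0.21 without EA 2 and EA 5, and -0.11 (standard error 0.266) with the endothelial marker mean in the fit. Mfsd2a had 3 endothelial markers (Pltp, Esam and Slc2a1) and 2 astrocyte markers (Gjb6 and Aldh1l1) among the 100 genes closest to it. Of the other members tested, Ehd2 had Gjb6 alone and the rest had 0 of either.

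Plvap forms the diaphragms of fenestrae and caveolae and is nearly absent from mature barrier vessels. It was measured at 0.344, 0.559, 0.321, 0.620 and 0.372 FPKM in EA 1 to EA 5, against 0.745, 0.384, 0.398, 0.484 and 0.675 FPKM in control 1 to control 5. These values stand for 33 to 72 counts in EA and 47 to 92 counts in control. Fitted without the expression filter, its log2 fold change was -0.25 (standard error 0.295, 95% interval -0.89 to 0.39, edgeR adjusted p = 0.770), and the interval spans both signs.

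Tfrc, the transferrin receptor, was measured at 19.2, 16.6, 17.7, 18.3 and 21.9 FPKM in EA 1 to EA 5, against 17.0, 18.2, 18.8, 15.7 and 17.5 FPKM in control 1 to control 5. It was the 1 member besides Cav2 whose mean was higher in EA, and 2 EA libraries lay above the highest control. The means were 18.7 ± 1.99 FPKM in EA and 17.5 ± 1.17 FPKM in control (SD, n = 5 each), with a log2 fold change of 0.12 (standard error 0.0713, 95% interval -0.03 to 0.28, edgeR adjusted p = 0.467). Without EA 5 it was 0.07. Neurons as well as endothelial cells make this receptor.

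Around Tfrc, edgeR called 0 of 11 iron genes, and at an unadjusted p under 0.05 the 1 gene lower was Tfr2, the second transferrin receptor, at 0.357 ± 0.150 FPKM in EA and 0.616 ± 0.0980 FPKM in control (SD, n = 5 each). Of 13 other receptors that carry cargo across endothelium, edgeR called 0, with 3 lower and 1 higher at an unadjusted p under 0.05. The scavenger and amyloid receptor Lrp1 (-0.16), basigin (Bsg, -0.14) and the IgG receptor Fcgrt (-0.22) were the lower ones and the insulin receptor Insr (0.14) the higher. Of 15 clathrin and AP-2 genes, edgeR called 0, and at an unadjusted p under 0.05 the membrane scission GTPase Dnm2 was lower (-0.17). DESeq2 called 0 genes in these lists, but gave Tfr2 and Slc40a1 no adjusted p. Over all genes tested with edgeR, 7.15% were lower and 6.59% higher at the same unadjusted p.

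Of 9 genes for proteins that reside in caveolae or rafts, edgeR and DESeq2 called 0. At an unadjusted p under 0.05, 2 were higher, Flot2 (0.31), a flotillin that forms membrane domains without caveolin, and Insr. Of all genes tested with edgeR, 6.59% were higher at this p. Flot2 averaged 31.8 ± 3.42 FPKM in EA and 26.1 ± 3.53 FPKM in control (SD, n = 5 each). The muscle relatives Cav3 and Cavin4 were below the filter, with 0 counts of Cav3 in EA and 12 in control, all of them in 1 control library. The median log2 fold change was -0.23 over the 9 members tested, close to the -0.22 of the endothelial markers and the -0.17 of oligodendrocyte markers, against -0.08 over the residents, -0.06 over the receptors, -0.05 over the clathrin genes and -0.0018 over all genes tested.

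**Figure D5:**
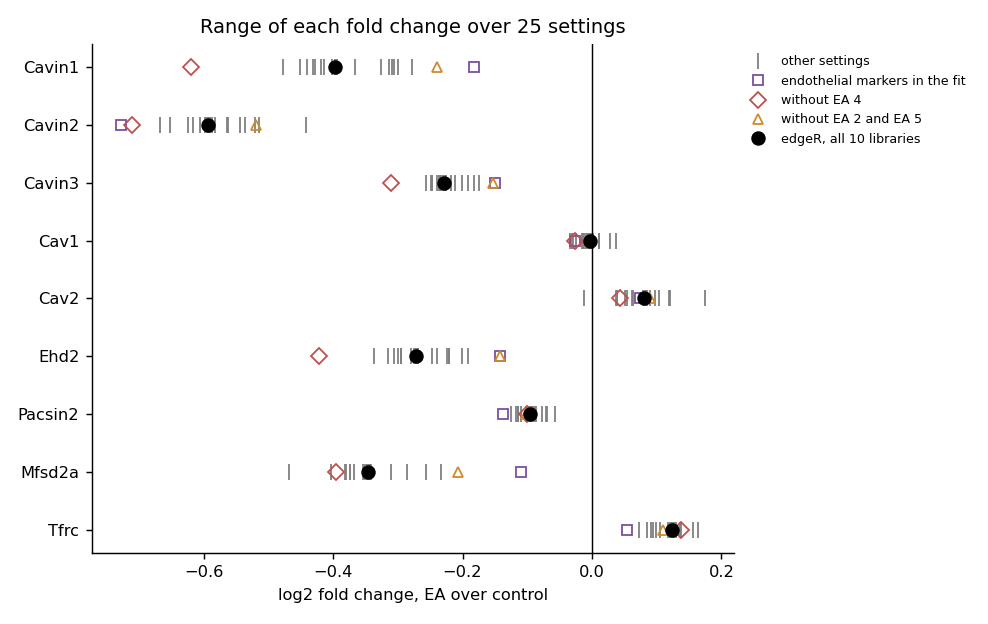
Log2 fold change of EA over control (horizontal axis) for the 9 members tested, under the main edgeR fit (black) and the 24 alternatives (grey ticks and open symbols). Cavin1, Cavin2, Cavin3, Ehd2, Pacsin2 and Mfsd2a stay below 0 and Tfrc above 0 in all of them, and Cav1 lies at 0.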

How the data were processed

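The estimated counts and the FPKM values were made by the authors and deposited side by side, per gene and library. Per the methods, reads were trimmed with Cutadapt 1.9, aligned with HISAT2 2.0.4, assembled with StringTie 1.3.4d and merged with gffcompare 0.9.8, and FPKM came from ballgown. The submitters' notes name HISAT2 2.0, StringTie 1.3.0, Bowtie 0.12.2 and Rnor_6.0. How the authors derived the deposited counts is not given in the sources used here, and their totals exceed the read totals the study lists. An FPKM of 0.0001 stands for 0.

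Counts were fitted with edgeR 4.0.16 (TMM, quasi-likelihood F test) in R 4.3.3 over all genes with FPKM of at least 0.5 in at least 5 libraries, with Benjamini-Hochberg adjustment. Log2 CPM used a prior count of 2. DESeq2 1.42.0 and limma 3.58.1 on log2(FPKM + 0.1 or 1) were alternatives, with other scalings and filters, marker covariates, a replicate block and libraries left out. The script was tested on simulated data. From each other list the text names up to 3 genes with the lowest p, and for each member the 3 closest genes. Cldn5, Otx2, Cav3, Cavin4, Esam, Pltp, Slc2a1, Gjb6, Aldh1l1, Fcgrt, Slc40a1, Cdh5, Egfl7 and Emcn were added after values were seen. The members and lists were chosen with earlier results of these data known. Promoters came from RefSeq (GRCr8) by symbol; no coordinates were moved between builds.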

Additional observations from a re-analysis of the deposited data

Results flagged for a closer look

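Cavin1 in EA 4 stood far from the other EA libraries, at 25.6 FPKM against 11.8 to 15.7 FPKM in the other 4. Its gap to the nearest of them was 0.722 of the group's whole range, where the limit for 5 samples is 0.71. Groups were examined 26 times in this way, and chance alone marks about 1 in 20. Without EA 4 the log2 fold change of Cavin1 was -0.62 (standard error 0.149, edgeR adjusted p = 0.187), and coat minus scaffold was -0.53. EA 4 was also the highest EA library for Cavin2, Cavin3 and Ehd2. The mean log2 CPM of fibroblast and meninges markers was 4.86 in EA 4, the highest in EA, but EA 1, low in Cavin1, had 4.52. Control 4 and control 5, the highest controls in Cavin1, had 4.67 and 4.88. With this marker mean in the fit, the log2 fold change of Cavin1 was -0.30 (standard error 0.161). The part of these cells in the EA 4 value was not tested further.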

How the results depend on the processing

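No member was called under any edgeR or limma setting, and DESeq2 called Cavin2 (-0.59, adjusted p = 0.0200). Over 24 alternatives the log2 fold change ran from -0.73 to -0.44 for Cavin2, with adjusted p from 0.0200 to 0.802, from -0.62 to -0.18 for Cavin1, from -0.31 to -0.15 for Cavin3, from -0.42 to -0.14 for Ehd2, from -0.14 to -0.06 for Pacsin2, from -0.47 to -0.11 for Mfsd2a and from 0.05 to 0.16 for Tfrc. Cav1 kept its sign in 18 of 24 (-0.03 to 0.04) and Cav2 in 23 of 24 (-0.01 to 0.17), the exception being 1 library left out. Coat minus scaffold stayed between -0.53 and -0.36 in 17 alternatives, and from -0.53 to -0.36 with single libraries left out. Adding the marker means of mural cells or fibroblasts, and leaving out control 4 and EA 4 together (-0.46), were chosen after seeing the data.

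Genes called higher in EA numbered 3, against 69 with DESeq2, 1 with limma on log2(FPKM + 0.1), 0 with endothelial markers in the fit and 1 to 5 with single libraries left out. Genes called lower numbered 0, against 97 with DESeq2, 1 with limma at either pseudocount, 2 without EA 2 and EA 5, 1 with mural markers in the fit and 0 to 1 with single libraries left out. The cause was not tested.

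With the replicate number as a block, edgeR called 0 genes higher and 0 lower. Cavin1 was then -0.43 (adjusted p = 0.244) and Cavin2 -0.58 (adjusted p = 0.214). The standard error was 0.110 for Cavin1 against 0.201 without the block, and 0.114 against 0.169 for Cavin2. For Cavin3 it was larger, at 0.106 against 0.0974. Deviations of same-numbered libraries correlated at -0.0026 to 0.0605 over all genes tested, and 1 of 5 numbers matched best with its own. A pairing was not seen over all genes, but whether single members follow one was not tested.

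Plvap rests on 33 to 72 counts in EA libraries and 47 to 92 in control libraries, and its FPKM varied by 30.8% in EA and 30.6% in control (SD over mean). Intervals cover the spread between 5 libraries a group.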

Other observations

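The file's own annotation of caveola genes gave a wider set. Without the members, 52 of its 58 genes were tested, and edgeR called 0 of them where DESeq2 called 2. Among the 15155 genes it tested, DESeq2 called 69 higher and 97 lower. At an unadjusted p under 0.05 with edgeR, 6 were higher in EA and 3 lower, where 6.59% of all genes tested were higher and 7.15% lower. The median log2 fold change of these 52 genes was -0.04. Lipe, the hormone-sensitive lipase of lipid droplets, was lower (-0.39, standard error 0.0971, edgeR adjusted p = 0.178), and the serotonin receptor Htr2a was higher (0.31, standard error 0.0792, edgeR adjusted p = 0.183), as was Flot2 (0.31, edgeR adjusted p = 0.237).

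Oligodendrocyte markers were also below 0 in all 8 genes tested, as were 50.5% of all genes tested. Of them, 3 were lower at an unadjusted p under 0.05 with edgeR, where 7.15% of all genes tested were. Both edgeR and DESeq2 called 0 of them. The markers summed to 899 to 1160 FPKM in EA and to 1014 to 1463 FPKM in control. Astrocyte markers were split evenly, 4 above and 4 below 0.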
